A study of Mus musculus with 6 samples.

Results

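The nucleolar ribosome biogenesis genes are 46 mouse genes chosen by name because their products work on the way from ribosomal DNA to the 2 ribosomal subunits. These genes and the other gene lists below were chosen with earlier results of the same data known. Of the 46, 45 had a value and all 45 passed the filter on low values, in which one of the conditions had to average 1 FPKM or more, and Noc2l was not analysed here. They were 45 of 13207 genes tested. FPKM counts fragments per kilobase of transcript, scaled to the size of the library, so levels of different genes are compared per length.

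PolyA RNA came from TT-FHAgo2, a clonal line of mouse embryonic stem (ES) cells whose Argonaute 2 (Ago2), a protein that microRNAs guide to messenger RNAs, is under the control of doxycycline. The no doxycycline group was taken off the drug for 96 h and the doxycycline group received 2.5 µg/mL for 48 h, a dose given in the labels as restoring a wild-type amount of Ago2. Both groups had been maintained at 0.1 µg/mL doxycycline beforehand, and other alleles of the line are not named in the labels. Each group had 2 libraries, numbered 0 and 1, and values below are given in that order. Length of treatment and presence of the drug differed together, so they cannot be told apart.

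Ribosomes are built in the nucleolus, where RNA polymerase I transcribes a long precursor of most ribosomal RNA. Small nucleolar ribonucleoproteins (snoRNPs) modify it, box C/D particles by 2′-O-methylation and box H/ACA particles by pseudouridylation. Large complexes then fold and cleave it into the small-subunit and large-subunit particles. ES cells divide rapidly and are known for large, active nucleoli.

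Most of these genes had less RNA per kilobase without doxycycline. In limma, 30 of the 45 fell, 15 did not pass the adjusted p threshold of 0.05 and 0 rose, and 0 rose at an unadjusted p under 0.05 either. Of all genes tested, 21.3% fell and 19.7% rose. The no doxycycline libraries lay below both doxycycline libraries for 38 of the 45 genes, a pattern shown by 40.0% of all genes. The median log2 change of the 45 was -0.44 (interquartile range -0.64 to -0.32), against -0.06 over all genes tested, and the median gene stood at 73.4% of its doxycycline level. Among the 4172 genes whose mean level lay within the range of the 45, 1150 fell, 482 rose and the median log2 change was -0.16. In bulk RNA, fewer cells with high levels and less RNA in each cell cannot be told apart.

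Summed over the 45 genes, the level was 3799 and 4426 FPKM without doxycycline, against 5502 and 6344 FPKM with it. As a share of the summed FPKM used, that was 0.845% and 0.912% without doxycycline, against 1.08% and 1.19% with it. Both libraries without the drug were below both with it, also when the pair of most abundant genes, Ncl and Npm1, was left out of the sum (2344 and 2691 FPKM without doxycycline, against 3360 and 3721 FPKM with it). The count of genes that fell depended on single libraries: it was 10 on leaving out doxycycline library 1, 12 on leaving out the no doxycycline library 0, 17 on leaving out doxycycline library 0 and 33 on leaving out the no doxycycline library 1. Leaving out a library also left the library numbers unbalanced between groups, and the fit had no term for them. The count was 14 with the most abundant isoform of each gene alone and 14 with no filter on low values. In all 16 alternative settings 42 of the 45 changes stayed below zero, the exceptions being Polr1b, Ubtf and Tsr1. Fold changes are on the log2(FPKM + 0.5) scale, which understates those of low genes. Separate cultures are not stated in the labels, and the spread between libraries behind each p-value may therefore be technical.

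**Figure D1:**
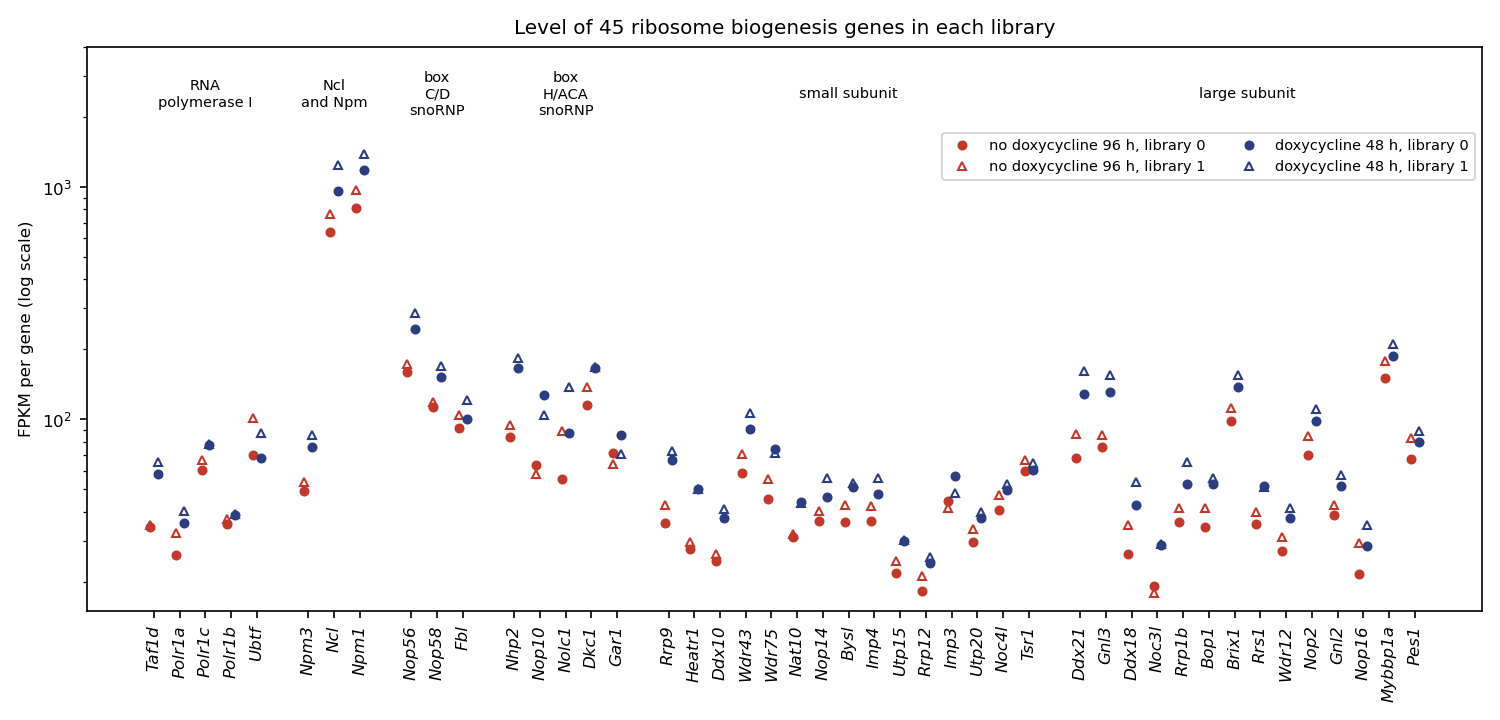
Level in FPKM (log axis) of each of the 45 genes in the 2 no doxycycline libraries (red, left of each pair) and the 2 doxycycline libraries (blue), with genes grouped by role and ordered by change within a group; circles are library 0 and triangles library 1. Red points lie below both blue points for 38 genes, and Ncl and Npm1, at 641 to 1386 FPKM, stand above the rest.

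Depth, cell identity and the targeted gene were checked in the same libraries. Low FPKM values fell on whole-read steps in both libraries numbered 1 (100% of values within 0.1 of a read), which corresponds to about 45.9 M fragments without doxycycline and 45.8 M with it. In the libraries numbered 0 only 41.9% and 42.8% of values lay within 0.1 of a read, so their depth is unknown. At a fixed depth 20% would do so by chance, but the depth was chosen for the highest share, which lifts the chance share above 20%. The 45 genes rested on between 1393 fragments (Imp3 without doxycycline) and 129527 fragments (Ncl with it) in the libraries numbered 1. Ago2, listed under its older symbol Eif2c2, was at 28.7 and 28.8 FPKM without doxycycline, against 35.2 and 36.7 FPKM with it (log2 change -0.32, SE 0.08, adjusted p = 0.0287). The labels do not give the sequence of the controlled gene, so this value may not measure it. All 10 ES cell markers were present, with 3 lower (Zfp42, Utf1 and Klf4) and 2 higher (Nanog and Fgf4). They summed to 4402 and 4989 FPKM without doxycycline, against 4221 and 4712 FPKM with it. The largest part was Dppa5a, which did not pass, at 1785 and 2150 FPKM without doxycycline, against 1492 and 1817 FPKM with it. Of 10 mesenchymal or fibroblast markers, 2 (Thy1 and Vim) reached 1 FPKM and Col3a1 was at 0, with sums of 147 and 278 FPKM without doxycycline, against 88.2 and 122 FPKM with it, almost all from Vim. Primitive endoderm markers summed to 18.0 and 21.7 FPKM without doxycycline, against 27.7 and 29.5 FPKM with it. Most of that sum was Lama1, which fell (log2 change -0.55, adjusted p = 0.0194), whereas Gata4 rose, at 1.27 and 1.39 FPKM without doxycycline, against 0.498 and 0.814 FPKM with it (log2 change 0.68, adjusted p = 0.0350). Neural markers summed to 74.6 and 90.1 FPKM without doxycycline, against 77.3 and 83.2 FPKM with it, mostly from Tubb3, which did not pass. Within that list Nes rose (log2 change 0.94, adjusted p = 0.00416) and so did Ncam1 (0.50, adjusted p = 0.0462). Blood markers stayed under 1 FPKM in sum, with Hba-a1 and Hbb-b1 at 0. The part of these markers in the results was not tested.

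The RNA polymerase I group moved least, with 2 of 5 genes lower and a median log2 change of -0.29. Taf1d, a subunit of the selectivity factor that recruits the polymerase to ribosomal DNA, had 34.3 and 34.9 FPKM without doxycycline, against 57.9 and 65.8 FPKM with it. These levels did not overlap, and Taf1d fell by 0.82 on the log2 scale (SE 0.10, adjusted p = 0.00411), a call that ended with the most abundant isoform alone (adjusted p = 0.0952). Its locus (NCBIM37 chr9:15110643-15121441, plus strand) also holds SNORA1, SNORA18, SNORA8 and SNORD5 in the deposited annotation. Polr1c, a subunit shared with RNA polymerase III, was at 60.6 and 66.5 FPKM without doxycycline, against 77.3 and 78.4 FPKM with it. Polr1c fell by 0.29 (SE 0.09), close to the threshold with an adjusted p of 0.0490, and the call ended with any library left out (0.0544 on leaving out the no doxycycline library 1, up to 0.251 on leaving out doxycycline library 1).

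The catalytic core itself gave less clear values. Polr1a, the largest subunit, was at 26.1 and 32.4 FPKM without doxycycline, against 35.7 and 40.5 FPKM with it, which do not overlap, but its log2 change of -0.38 did not pass (adjusted p = 0.0725). Polr1b, the second-largest subunit, was at 35.4 and 37.3 FPKM without doxycycline, against 38.9 and 39.1 FPKM with it (log2 change -0.10, 95% interval -0.31 to 0.10), and its sign turned to 0.058 on the TPM scale. Ubtf, the factor that keeps ribosomal DNA open, went against the group with 70.3 and 101 FPKM without doxycycline, against 67.9 and 87.5 FPKM with it. These groups overlap, and the log2 change was 0.13 (95% interval -0.41 to 0.67, adjusted p = 0.649). It turned to -0.052 on leaving out doxycycline library 0 and -0.13 on leaving out the no doxycycline library 1. Those fits leave the library numbers unbalanced between groups. At like numbers Ubtf was higher without doxycycline each time. With the most abundant isoform alone in place of the gene sum, the log2 change of Ubtf was -0.90 and passed (adjusted p = 0.0436).

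All 3 nucleolar chaperone genes fell, with a median of -0.64. Ncl encodes nucleolin, an RNA-binding protein of the precursor RNA, and Npm1 encodes nucleophosmin, a histone and ribosomal protein chaperone. Ncl had 641 and 768 FPKM without doxycycline, against 964 and 1236 FPKM with it, and fell by 0.64 (SE 0.17, adjusted p = 0.0336). Npm1 had 813 and 966 FPKM without doxycycline, against 1178 and 1386 FPKM with it, and fell by 0.53 (SE 0.14, adjusted p = 0.0374). Neither gene's groups overlap, and library 0 was the lower one in each pair. Both calls ended on leaving out doxycycline library 1 (adjusted p = 0.149 for Ncl and 0.193 for Npm1) and on leaving out the no doxycycline library 0 (0.108 for Ncl and 0.131 for Npm1), and that of Npm1 also on leaving out doxycycline library 0 (0.0643). With the most abundant isoform alone, both calls ended as well (adjusted p = 0.124 for Ncl and 0.546 for Npm1). The Ncl sum includes a 2033-nt form spanning NCBIM37 chr1:88123996-88255177, far beyond the leading form (chr1:88247071-88255939). This 2033-nt form had 49.9 and 21.7 FPKM without doxycycline, against 111 and 141 FPKM with it. Npm1 has processed pseudogenes, and how its reads were shared with them is not stated. Npm3, a relative of nucleophosmin, was far less abundant, at 49.0 and 53.5 FPKM without doxycycline, against 76.2 and 85.4 FPKM with it. Npm3 fell by 0.65 (SE 0.10, adjusted p = 0.00801) and kept its call in all 16 alternatives.

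The box C/D core divided by subunit. Nop56, a scaffold of the particle, had 159 and 172 FPKM without doxycycline, against 245 and 287 FPKM with it, and fell by 0.68 (SE 0.11, adjusted p = 0.00993). Its partner Nop58 had 113 and 119 FPKM without doxycycline, against 152 and 169 FPKM with it, and fell by 0.47 (SE 0.10, adjusted p = 0.0169). The groups did not overlap for either scaffold gene. The Nop58 call ended on leaving out doxycycline library 1 (adjusted p = 0.129), doxycycline library 0 (0.0512) or no doxycycline library 0 (0.0564), and the Nop56 call on leaving out doxycycline library 1 (0.0522) or with the most abundant isoform alone (0.0719). Fbl, which encodes the methyltransferase fibrillarin, had 91.5 and 105 FPKM without doxycycline, against 99.9 and 120 FPKM with it. These overlap, and its log2 change of -0.16 (95% interval -0.49 to 0.16) did not pass. The locus of Nop56 (NCBIM37 chr2:130100166-130105049, plus strand) also holds SNORA51, SNORD56 and SNORD57.

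The box H/ACA group held the largest changes of the 45. Nhp2, an RNA-binding core protein, had 83.7 and 94.9 FPKM without doxycycline, against 166 and 183 FPKM with it, and fell by 0.97 (SE 0.11, adjusted p = 0.00369). Nop10, the smallest core protein, had 63.4 and 58.2 FPKM without doxycycline, against 127 and 105 FPKM with it, and fell by 0.92 (SE 0.12, adjusted p = 0.00553). Both stood at about the same fraction of their doxycycline level (51.1% for Nhp2 and 52.4% for Nop10), their groups lay far apart, and both kept their calls in all 16 alternatives. Dkc1, the pseudouridine synthase dyskerin, had 115 and 137 FPKM without doxycycline, against 166 and 167 FPKM with it. It stood at 75.8% of its doxycycline level and fell by 0.40 (SE 0.11, adjusted p = 0.0397), a call that ended when any library but no doxycycline library 1 was left out (adjusted p = 0.121 to 0.157). Gar1, the remaining core protein, had 71.7 and 64.0 FPKM without doxycycline, against 85.2 and 70.6 FPKM with it, which overlap (log2 change -0.19, 95% interval -0.51 to 0.12). With isoforms under 500 nt left out, the log2 change of Gar1 was -0.42 (adjusted p = 0.00945).

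Nolc1, a phosphoprotein that brings both kinds of snoRNP together, was the most variable gene of the set. It had 55.1 and 88.7 FPKM without doxycycline, against 87.4 and 138 FPKM with it. Library 1 was the higher one in both groups and the groups overlap. The log2 change of -0.65 (SE 0.30, adjusted p = 0.144) did not pass. It was -0.98 on leaving out doxycycline library 0 and -0.99 on leaving out the no doxycycline library 1. Those fits leave the library numbers unbalanced between groups.

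**Figure D2:**
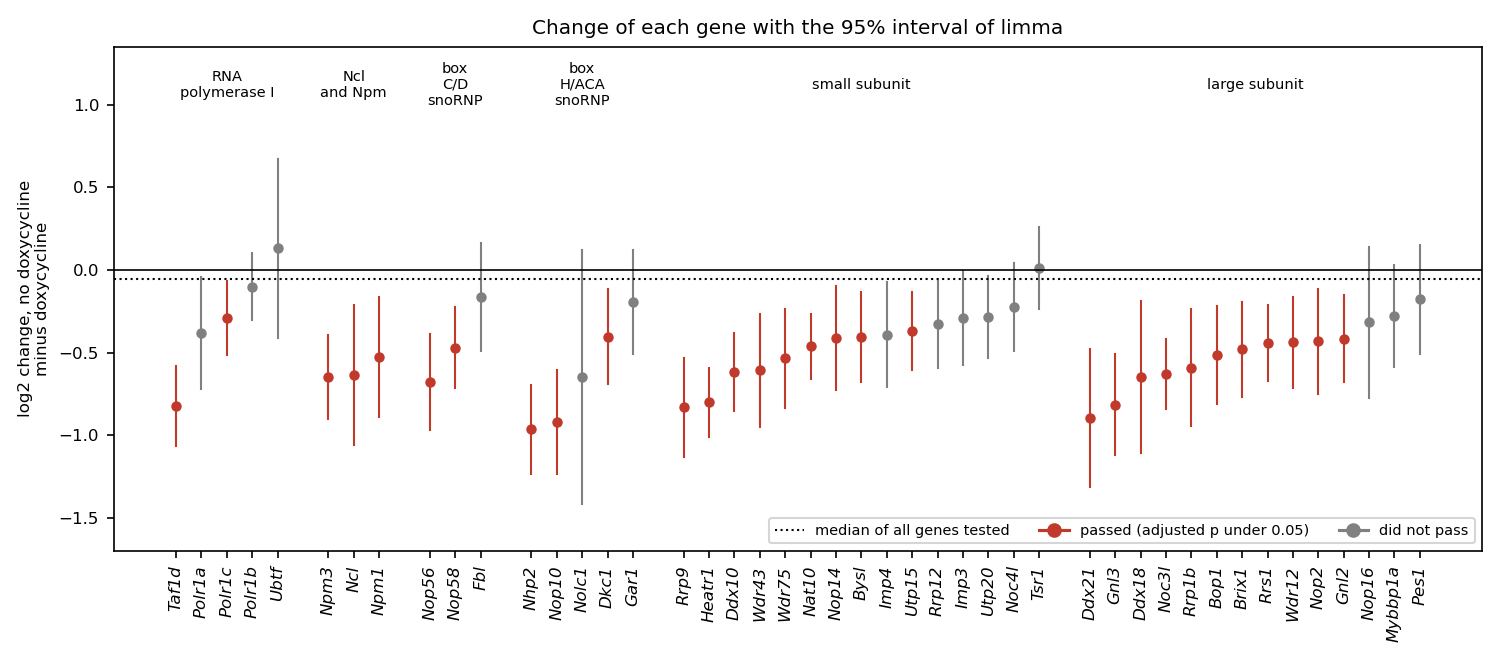
Log2 change in FPKM (no doxycycline minus doxycycline) of each of the 45 genes with the 95% interval of limma, grouped by role; red genes passed an adjusted p of 0.05 and grey ones did not, and the dotted line is the median of all genes tested. Points run from -0.97 (Nhp2) to 0.13 (Ubtf), and 43 of 45 lie below zero.

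Of 15 small-subunit genes, 9 fell and 6 did not pass, with a median of -0.40. Rrp9, a protein of the snoRNP that guides the first cleavages of the small-subunit RNA, had 35.7 and 42.7 FPKM without doxycycline, against 66.7 and 73.3 FPKM with it, and fell by 0.83 (SE 0.12, adjusted p = 0.00646). Heatr1, a large scaffold of the early complex that also acts in polymerase I transcription, had 27.5 and 29.5 FPKM without doxycycline, against 49.9 and 50.2 FPKM with it, and fell by 0.80 (SE 0.08, adjusted p = 0.00315). Ddx10, a helicase of the processome, had 24.4 and 26.4 FPKM without doxycycline, against 37.5 and 41.0 FPKM with it, and fell by 0.62 (SE 0.09, adjusted p = 0.00747). For all 3 the groups lay well apart, and all 3 kept their calls in the 16 alternatives.

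The other 6 small-subunit genes that fell did so by 0.37 to 0.61. They were Wdr43 and Utp15, members of the subcomplex that binds the start of the precursor, Wdr75 of the same subcomplex, the acetyltransferase Nat10, the processome protein Nop14 and Bysl, a component of small-subunit precursors. Their groups did not overlap, but each lost its call with some library left out, and on leaving out doxycycline library 1 all 6 did. The remaining 6 gave log2 changes that did not pass: -0.39 for Imp4, -0.33 for Rrp12, -0.29 for Imp3, -0.29 for Utp20, -0.22 for Noc4l and 0.01 for Tsr1. Tsr1, a factor of late small-subunit particles that reach the cytoplasm, had 59.8 and 67.0 FPKM without doxycycline, against 60.6 and 65.0 FPKM with it. These levels overlap almost completely, with a 95% interval of -0.23 to 0.26, and the sign of the Tsr1 change was negative in 4 of the alternatives (-0.069 to -0.037).

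Of 14 large-subunit genes with values, 11 fell and 3 did not pass, with a median of -0.46. Ddx21, a helicase that couples polymerase I transcription to processing, had 68.4 and 86.3 FPKM without doxycycline, against 128 and 161 FPKM with it, and fell by 0.90 (SE 0.16, adjusted p = 0.0126). Gnl3, the GTPase nucleostemin of proliferating and stem cells, had 75.9 and 85.8 FPKM without doxycycline, against 131 and 155 FPKM with it, and fell by 0.82 (SE 0.12, adjusted p = 0.00704). Ddx18, another helicase, had 26.2 and 35.2 FPKM without doxycycline, against 42.8 and 53.7 FPKM with it, and fell by 0.65 (SE 0.18, adjusted p = 0.0402). The groups of these 3 genes did not overlap. The call of Gnl3 held in all 16 alternatives and that of Ddx21 in 15, ending with the most abundant isoform alone (adjusted p = 0.335). The call of Ddx18 ended on leaving out doxycycline library 1 (adjusted p = 0.112) or no doxycycline library 0 (0.102).

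Next in size came Noc3l, a nucleolar assembly factor, which fell by 0.63 (adjusted p = 0.00540) and kept its call in all 16 alternatives. The other 7 genes that fell did so by 0.42 to 0.59: the assembly factors Rrp1b, Brix1 and Rrs1, the GTPase Gnl2, the methyltransferase Nop2, and Bop1 and Wdr12, which form one complex with Pes1. In that complex Bop1 stood at 70.0%, Wdr12 at 73.5% and Pes1 at 88.7% of the doxycycline level. The groups overlap for Pes1 (log2 change -0.18, 95% interval -0.51 to 0.15), and whether it differed from its partners was not tested. Nop16 (-0.32) and Mybbp1a (-0.28), a nucleolar protein that also binds transcription factors, did not pass either. All 7 calls ended on leaving out doxycycline library 1.

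The table holds 331 isoforms of these genes that could be used, and 88 of them carried at least 10% of their gene. Of the 88, 76 had a lower mean without doxycycline and 12 a higher one. The 2 groups of libraries did not overlap for 57 of the lower forms (64.8% of the 88) and 2 of the higher ones (2.27%). Among the 29817 forms with at least 10% of their gene over all genes tested, 27.6% did not overlap downward and 25.2% upward. Single libraries could differ in the leading form: that of Npm1 was 1633 nt long in both libraries numbered 0 and 1192 nt in both numbered 1. By the mean of each condition, the leading form was the same in both conditions in 44 of 45 genes. Isoform levels are the authors' estimates of how shared reads divide, so they were described without a test.

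The exception was Ubtf, on the minus strand of NCBIM37 chr11:102165874-102181056, whose forms differed between conditions in opposite directions. Its 3286-nt form had 12.9 and 17.0 FPKM without doxycycline, against 25.4 and 31.2 FPKM with it. Its 3328-nt form, which encodes a protein of the same length (764 residues in GENCODE release M21), had 20.0 and 26.8 FPKM without doxycycline, against 13.0 and 16.6 FPKM with it. The groups separate for both forms, downward for the shorter and upward for the longer. The short splice form of the protein, of 727 residues, is known to be less active at ribosomal DNA. Forms encoding 764 residues together held 46.8% and 43.3% of Ubtf without doxycycline, against 56.6% and 54.6% with it. Forms encoding 727 residues held 31.5% and 32.5% without doxycycline, against 27.3% and 27.5% with it. The share of the long protein's forms was thus lower, and that of the short protein's forms higher, in both no doxycycline libraries than in either doxycycline library. These shares rest on estimates of how reads divide, and such separation was not counted over all genes. Activity at ribosomal DNA was not tested.

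In 4 genes, chosen after their values were seen, single forms differed more between library numbers than between conditions. The 2417-nt form of Nolc1 had 23.9 and 60.8 FPKM without doxycycline, against 41.7 and 100 FPKM with it. The 2849-nt form of Ddx21 had 15.8 and 44.5 FPKM without doxycycline, against 33.8 and 82.5 FPKM with it, and the 2281-nt form of Wdr43 had 6.33 and 30.9 FPKM without doxycycline, against 16.1 and 48.9 FPKM with it. In each, the shorter form was higher in both libraries numbered 1. In Npm1 the form that was lower in both libraries numbered 1 was a longer one, of 1633 nt. It had 421 and 205 FPKM without doxycycline, against 470 and 309 FPKM with it. The shorter 1192-nt form had 139 and 447 FPKM without doxycycline, against 236 and 497 FPKM with it. The 1157-nt and 966-nt coding forms of Npm1 were also higher in both libraries numbered 1, whereas its 822-nt and 450-nt non-coding forms were lower. The gene totals of Ddx21, Wdr43 and Npm1 nevertheless separated the conditions.

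**Figure D3:**
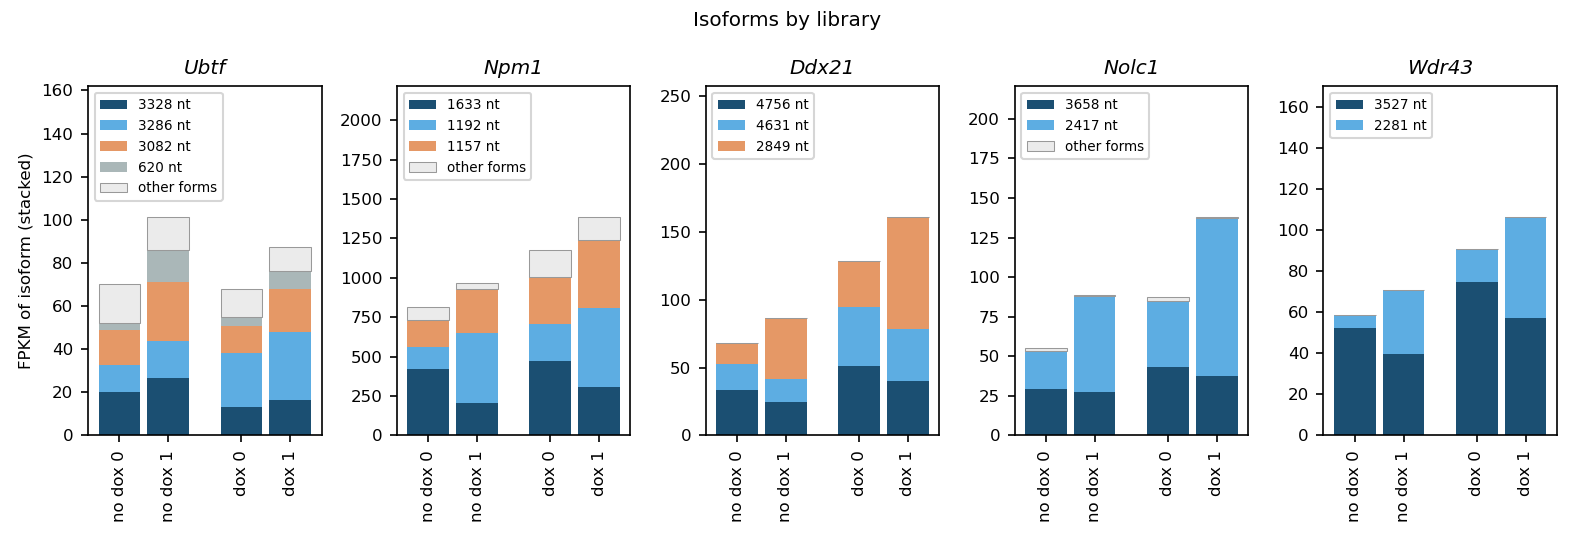
Stacked FPKM of the isoforms of 5 genes in the 2 no doxycycline (no dox) and 2 doxycycline (dox) libraries; each colour is a form, named by its length in nucleotides (nt), and forms below 10% of the gene are pooled as other forms. In Ubtf the 3286-nt form is smaller and the 3328-nt form larger without doxycycline, and in the other 4 genes the proportions of short and long forms follow the library number.

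Most coding and most non-coding forms had lower means. Among isoforms identical to an annotated transcript and at 1 FPKM or more, 58 of 69 coding forms and 28 of 36 forms with a retained intron had a lower mean without doxycycline, with median log2 ratios of -0.46 and -0.51. Retained-intron forms summed to 142 and 135 FPKM without doxycycline, against 189 and 180 FPKM with it. For 19 of the 28 lower retained-intron forms the groups did not overlap, and the share of such forms over all genes was not counted. The other 8 retained-intron forms had a higher mean, 3 of them with no overlap. An example, chosen after its values were seen, is the 709-nt retained-intron form of Noc4l, at 5.90 and 5.96 FPKM without doxycycline, against 5.30 and 3.76 FPKM with it, whereas the coding form had 33.1 and 36.8 FPKM without doxycycline, against 41.8 and 45.7 FPKM with it. Tsr1 was made up largely of forms that are not expected to give the full protein. Its coding 3389-nt form held 11.8% of the gene without doxycycline and 12.2% with it, and the remaining forms above 10% were annotated as nonsense-mediated decay or retained intron.

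The E-box CACGTG, letters bound by Myc with Max and by other factors of that family, has been described near many ribosome biogenesis genes, so promoters were searched for it. It reads the same on both strands. In RefSeq promoters of build GRCm38.p6, from 250 bases before to 50 after the start, 40 of the 46 genes were matched and 7 (17.5%) held it. It was held by 12.3% of the 8146 tested symbols matched and by 7.15% of all 32851 promoters in the table. The 7 are shown so that the letters can be set beside the RNA change: 2 of them fell (Nop2 and Wdr43), out of 26 matched genes that fell, and 5 did not pass, out of 13 matched. Sequences are written 5′ to 3′ on the gene's strand, with CACGTG in capitals and shorter stretches where the letters lie after the start.
Nop2, chr6:125131786-125131865, plus strand: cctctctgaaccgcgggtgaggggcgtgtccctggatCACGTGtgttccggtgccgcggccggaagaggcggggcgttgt
Wdr43, chr17:71616220-71616249, plus strand: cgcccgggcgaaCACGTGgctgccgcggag
Imp4, chr1:34439671-34439750, plus strand: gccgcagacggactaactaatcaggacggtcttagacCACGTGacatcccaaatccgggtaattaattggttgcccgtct
Utp20, chr10:88826765-88826789, minus strand: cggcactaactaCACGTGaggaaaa
Pes1, chr11:3963965-3963994, plus strand: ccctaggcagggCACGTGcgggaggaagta
Mybbp1a, chr11:72441355-72441376, plus strand: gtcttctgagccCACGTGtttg
Tsr1, chr11:74898092-74898121, plus strand: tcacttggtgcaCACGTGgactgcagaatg

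A match of letters is a description and does not show binding. Myc itself had 5.47 and 7.57 FPKM without doxycycline, against 17.0 and 18.4 FPKM with it (log2 change -1.39, SE 0.16, adjusted p = 0.00403). Mycn, a paralog also active in ES cells, was far more abundant, at 73.8 and 79.7 FPKM without doxycycline, against 77.9 and 75.8 FPKM with it, which overlap (adjusted p = 0.976). The part of either in these changes was not tested.

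Other genes of the same pathway, 120 tested of 124 listed, gave similar counts: 72 fell, 48 did not pass and 0 rose in limma (0 also at an unadjusted p under 0.05), with a median of -0.45. Wdr36 and Nop9 were not analysed here, and Taf1a and Exosc6 were listed at 0 in every library. Of other RNA polymerase I genes, 7 of 16 fell, led by Polr2l, a subunit of all nuclear RNA polymerases (-0.78, adjusted p = 0.00584), and the polymerase I subunit Znrd1 (-0.69, adjusted p = 0.00504). Polr2e, Polr2h, Polr2k, Polr1d and Nol11 also fell, whereas Polr1e, Polr2f, Twistnb, Cd3eap, Taf1b, Taf1c, Ttf1, Tcof1 and Rrn3 did not pass. Rrn3, the factor that makes the polymerase competent to start, was at 83.8 and 83.7 FPKM without doxycycline, against 84.7 and 83.5 FPKM with it. Of other snoRNP genes, 4 of 10 fell, and the largest falls were of the box C/D assembly factors Znhit3 (-1.03, adjusted p = 0.00206) and Znhit6 (-0.79, adjusted p = 0.0110). The other small-subunit genes gave 21 of 36 lower, led by Rrp36 (-1.16, adjusted p = 0.0204) and Mphosph10 (-0.87, adjusted p = 0.0209), the partner of Imp3 and Imp4. The other large-subunit genes gave 32 of 47 lower, led by the assembly factors Nip7 (-1.10, adjusted p = 0.00262) and Nle1 (-0.92, adjusted p = 0.0125). Of the RNA exosome, which trims precursor ends, 8 of 11 genes fell, with the ring subunit Exosc5 (-0.89, adjusted p = 0.00891) and the cap subunit Exosc2 (-0.86, adjusted p = 0.0137) in front. The total of 72 was 34 on leaving out doxycycline library 1 and 43 on leaving out the no doxycycline library 0.

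Ribosomal proteins are what these factors assemble. Of 83 cytosolic ribosomal protein genes, 31 fell and 0 rose (0 also at an unadjusted p under 0.05), with a median log2 change of -0.37 against -0.44 for the 45 biogenesis genes. Their summed level was 47381 and 54530 FPKM without doxycycline, against 61302 and 68037 FPKM with it. Of 76 mitochondrial ribosomal protein genes, made into ribosomes outside the nucleolus, 32 fell and 1 rose, with a median of -0.34. Whether these lists differ from the biogenesis genes was not tested.

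**Figure D4:**
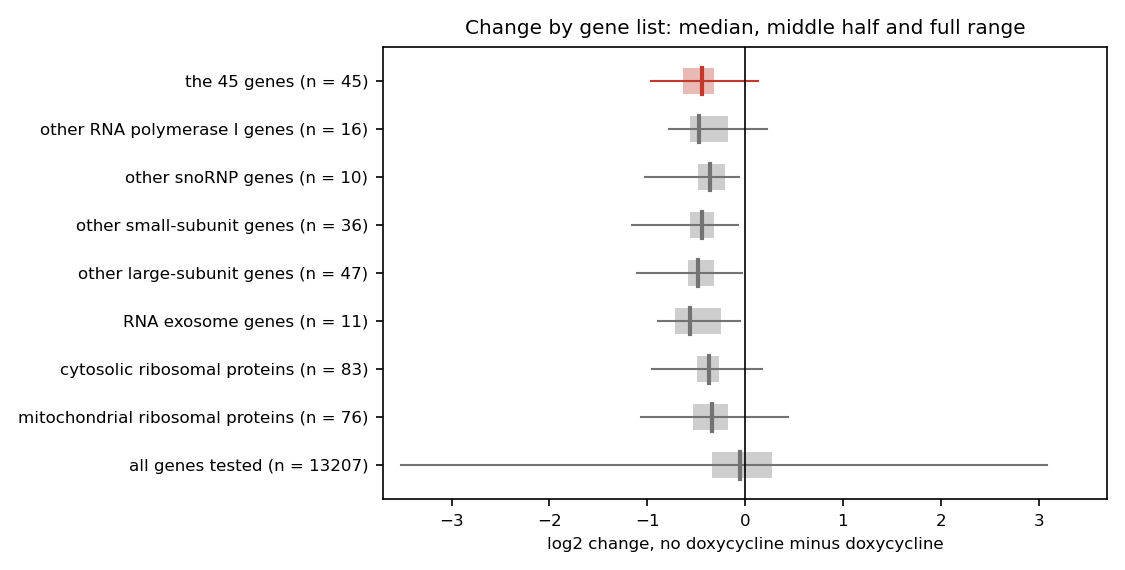
Log2 change (no doxycycline minus doxycycline) by gene list: the vertical mark is the median, the box the interquartile range and the line the full range, with the number of genes tested beside each name. Medians of the ribosome biogenesis lists lie between -0.56 and -0.36, the ribosomal proteins at -0.37 (cytosolic) and -0.34 (mitochondrial), and all genes tested at -0.06.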

How the data were processed

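PolyA RNA libraries were strand-specific, per the labels' protocols. The authors deposited FPKM per isoform. TopHat2 2.0.9, Cufflinks 2.1.1 and build NCBIM37 are named in the submitters' processing notes, without the fragment total used for scaling. Exon coordinates, another kind of deposited value, came unchanged from the authors' Cuffmerge annotation. Spike-in libraries of ES and mesenchymal cells were not used here.

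Of 181027 isoforms, 141569 were used: named, at least 200 nt long and of class = or j (matching, or sharing a junction with, a named transcript). Isoforms under 200 nt held 98.9% to 99.6% of a library's summed FPKM, and 331 of 332 isoforms of the 46 genes were used. Sums per gene symbol were taken to log2(FPKM + 0.5). Where one condition averaged 1 FPKM or more, limma 3.58.1 in R 4.3.3 tested the gene two-sided, with a variance trend (residual degrees of freedom 2, prior 3.21) and Benjamini-Hochberg adjustment over 13207 genes at 0.05. The procedure was tested on data simulated with the same spread for every gene and no effect of library number. That test does not show how often calls in these libraries are wrong. Python 3.11.15, numpy 2.4.6, pandas 2.3.3 and matplotlib 3.10.9 did the rest. GENCODE release M21 gave transcript types and protein lengths only.

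The genes and lists were chosen with earlier results of these data known. Values per library are given for the 3 genes of each role with the largest absolute change and for any that moved against its role, and other pathway genes are named by the 2 largest falls called per list. Genes of the other RNA polymerase I list are all named. Values of Polr1b, Fbl, Dkc1, Gar1 and Rrn3, and the isoforms described, were chosen after they were seen. Alternatives were pseudocounts, filters, scalings, isoform choices, variance models, a replicate block and leaving out each library.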

Additional observations from a re-analysis of the deposited data

How the results depend on the processing

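The count of 30 genes that fell was 30 with pseudocounts of 0.1 or 1, with every class code and with a minimum of 5 FPKM, 32 with isoforms of at least 500 nt, 27 without the variance trend, 24 on the TPM scale, 36 with library medians set equal and 22 with no isoform length minimum. It was 14 with no filter on low values, where 23606 genes were tested, and 14 with the most abundant isoform alone, where other pathway genes gave 33 and all genes 2053 calls instead of 72 and 5417; the cause was not tested. Leaving out one library gave 10 to 33 of the 45 genes, 34 to 76 other pathway genes and 3285 to 4427 calls over all genes. The lone library left in a group was then assumed to vary like the others, and the library numbers were no longer balanced between groups. No gene of the 45 was called higher in any setting. The median change was -0.54 to -0.34 with a library left out and -0.29 on the TPM scale, where the median of all genes was 0.10; the difference between them was -0.39 there and as deposited. Of all calls, 48.1% were higher as deposited, 67.6% on the TPM scale (3996 higher, 1917 lower) and 38.0% with medians equal (2366 higher, 3853 lower). The sign turned for Tsr1 with medians equal (-0.050), the most abundant isoform (-0.043), on leaving out doxycycline library 0 (-0.037) and on leaving out the no doxycycline library 1 (-0.069), for Polr1b on the TPM scale (0.058), and for Ubtf with the most abundant isoform (-0.90, adjusted p = 0.0436), on leaving out doxycycline library 0 (-0.052) and on leaving out the no doxycycline library 1 (-0.13). With a library left out, Tsr1 ranged from -0.069 to 0.093 and Ubtf from -0.13 to 0.39.

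The labels do not pair libraries and do not say what same-numbered libraries have in common. Deviations of same-numbered libraries correlated at 0.46 over genes. Whole-read steps were complete in both libraries numbered 1 and in neither numbered 0. The main fit left the library number out. With a replicate block by that number, 42 of the 45 genes fell, Nolc1 among them (adjusted p = 0.00102), and 8157 genes were called. With 2 libraries a group and depth unknown in the libraries numbered 0, small changes could not be resolved.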
